A study of Mus musculus with 7 samples.

Results

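The genes described here encode the enzymes that make asparagine, serine and the one-carbon units carried on folate. They were chosen by name, as the rows of the deposited gene table with the symbols Asns, Phgdh, Psat1, Psph, Shmt1, Shmt2, Mthfd1, Mthfd1l, Mthfd2 and Aldh1l2, and all 10 have a row among the 22877 rows of the table. RNA was sequenced from oocytes freed from secondary follicles of 8-week-old mice, comparing Mfn1-/- with WT oocytes. Mfn1 encodes mitofusin 1, a protein of the outer mitochondrial membrane that fuses mitochondria with each other. Mfn1-/- females carry 2 floxed Mfn1 alleles (Mfn1 fl/fl) and Zp3-Cre, and WT females were their wild-type littermates, with the strain given as C57BL/6J for all samples. Cre under the Zp3 promoter acts in the growing oocyte and not in granulosa cells, so Mfn1 is lost only once a follicle has begun to grow. A library held the RNA of 5 oocytes. The labels list 4 WT and 3 Mfn1-/- libraries, whereas the design text gives n = 3 for each group.

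Serine is made from the glycolytic intermediate 3-phosphoglycerate in a chain that runs from Phgdh through Psat1 to Psph. The serine hydroxymethyltransferases Shmt1 and Shmt2 then move a carbon from serine onto tetrahydrofolate, which leaves glycine, and the Mthfd and Aldh1l enzymes oxidise or release that carbon in the mitochondrion or use it in the cytosol for purines, thymidylate and methionine. Asns makes asparagine from aspartate and glutamine. Several of these genes are known targets of the transcription factor ATF4, which is translated when amino acids are short or when mitochondria are damaged. In the ovary, folate-dependent carbon supplies the nucleotides and methyl groups used by the growing oocyte and the early embryo.

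Asns and the last steps of serine synthesis, Psat1 and Psph, had higher means in Mfn1-/- than in WT oocytes by more than 2-fold. Phgdh, the first step of serine synthesis, did not, but its value is uncertain because near-identical copies of its sequence exist, as described below. The ratios of the means were 4.51 for Asns, 14.9 for Psat1 and 3.15 for Psph, all from WT means below 0.3. With a pseudocount of 1 added to the means 0 of them passed 2-fold. Their Mfn1-/- means were below 1, and such a gene cannot be higher by 2-fold at that pseudocount, whatever its WT mean. Both serine hydroxymethyltransferases also had higher means, by less than 2-fold. Of the genes that act after them on the folate carbon, Mthfd1 and Mthfd2 differed little between the genotypes, with ratios of 1.04 and 1.13. Mthfd1l had a ratio of 1.47 at means below 0.1, and Aldh1l2 lay beside the lowest value of the table. No gene of the 10 was lower by 2-fold. The table gives 1 mean of normalized counts for each genotype and gene, and no values of single libraries were used here. The authors' own test columns in the table were left out. No spread between libraries and no test is therefore given, and whether a difference exceeds the spread between replicates was not assessed for any gene below. All means below are the authors' means as deposited, and fold changes were computed here as the log2 ratio of the Mfn1-/- mean to the WT mean after adding a pseudocount of 0.1 to each, so the change of a gene with low means is understated.

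Summed over all genes, the WT means gave 130160 and the Mfn1-/- means 142576. Expressed genes, here the 6226 whose mean over the libraries was 1 or more, had a median log2 fold change of 0.16. The lowest mean in the table is 0.01. The lowest values above it depended on gene length: the 5th percentile of the excess of the Mfn1-/- mean over 0.01 was 0.00972 in genes whose longest transcript has 300 to 600 bases and 0.0006 in genes above 8000 bases. The sources used here do not state whether the normalized counts were divided by length, so results are comparisons between genotypes. Means of different genes are set beside each other to pick the gene with the highest mean of a list and to sum marker genes. They are also used to choose genes above a minimum mean or near the mean of a given gene. The shares and ranks among genes so chosen depend on the unknown scale of the means. The deleted gene Mfn1 averaged 0.616 in WT and 0.0577 in Mfn1-/- oocytes. All 14 oocyte markers had a mean of at least 0.1 in both genotypes, among them Zp3 with 708 in Mfn1-/- and 609 in WT. Of the 12 granulosa markers with a row, 1 reached 0.1 in Mfn1-/- and 5 in WT oocytes, and their summed means were 2.4 and 1.78, of which Inha made up all but 0.527 and 0.827. The 6 markers of theca and stroma with a row summed to 0.223 and 0.221. Among the markers of endothelium, blood and immune cells, 3 of 8 had a row. The macrophage marker Cd68 was at 7.58 in Mfn1-/- and 0.672 in WT oocytes, Lyz2 at 0.01 and 0.0203, and Pecam1 at 0.168 and 0.188. The part of Cd68-expressing cells in the results below was not tested. In pooled oocytes, fewer cells and less RNA per cell cannot be told apart.

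**Figure D1:**
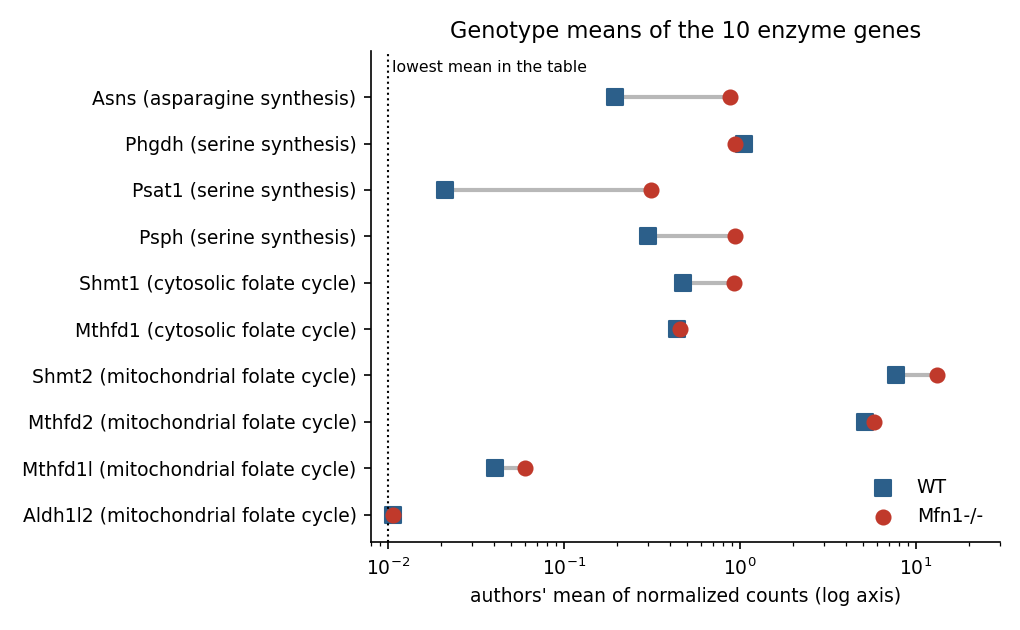
Mean of normalized counts (log axis) of each of the 10 genes in WT (squares) and Mfn1-/- oocytes (circles), joined by a line, with the metabolic role in brackets; each symbol is 1 genotype mean without error. Psat1, Asns and Psph have the widest gaps, the symbols of Mthfd1 and Aldh1l2 nearly coincide, and Aldh1l2 lies beside the lowest mean of the table (dotted line).

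Asparagine synthetase, Asns, lies on chromosome 6 of GRCm38 (chr6:7675169-7693254, minus strand, GENCODE M21). WT oocytes averaged 0.195 and Mfn1-/- oocytes 0.88, which is a ratio of 4.51 and a log2 fold change of 1.73. Of 13830 genes at or above a mean of 0.1, 255 (1.84%) had a higher log2 fold change. Among the 4300 genes whose mean over the libraries was within 2-fold of that of Asns, 114 (2.65%) had one as high. No other annotated gene shares an exon base with Asns, and no transcript of another gene shares 75 bases with it at 95% identity or more. Its related gene Asnsd1, which encodes a protein with an asparagine synthetase domain, had a WT mean of 4.87, an Mfn1-/- mean of 4.1 and a log2 fold change of -0.24. The Asns promoter is a well-studied example of an amino acid response element, a C/EBP-ATF site. The window from 250 bases before to 50 bases after the RefSeq start is shown because its letters can be read directly against that element (chr6:7693160-7693459, GRCm38.p6, minus strand, 5′ to 3′), with the match to the core TGATGNAA in capitals.
Asns: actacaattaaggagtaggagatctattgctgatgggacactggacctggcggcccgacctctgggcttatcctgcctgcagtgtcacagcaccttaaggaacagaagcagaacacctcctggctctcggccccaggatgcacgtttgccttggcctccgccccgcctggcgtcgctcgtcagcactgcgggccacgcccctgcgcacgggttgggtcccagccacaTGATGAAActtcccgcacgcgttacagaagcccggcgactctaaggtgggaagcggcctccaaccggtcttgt
The capitals begin 23 bases before the RefSeq start and read in the direction of transcription. TGATGNAA, searched on both strands, is found in 3.97% of the 32851 RefSeq promoter windows of the same length, and among the 10 windows of 9 of the genes described here it is found in this 1 window. Aldh1l2 has no promoter entry. The E-box CACGTG, whose letters neither contain nor lie within the other motif, is found in 7.15% of all windows and in 0 of these 10. A match is a description of letters and no evidence of binding, and no match says only that these letters are not in these windows.

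Psat1, phosphoserine aminotransferase, is the second enzyme of serine synthesis (chr19:15904678-15947337, minus strand). Its WT mean was 0.021 and its Mfn1-/- mean 0.313. The WT mean lies 0.011 above the lowest mean of the table, so the size of the fold change is set largely by how low values are treated. The sources used here do not state whether 0.01 was added to every mean. With 0.01 subtracted from both means the ratio was 27.5 in place of 14.9, whereas that of Asns was 4.7 and that of Psph 3.23. Expressed as a log2 fold change, the difference was 1.77 at a pseudocount of 0.1, 3.38 at 0.01, 0.36 at 1 and 3.90 without any. Psat1 reached a mean over the libraries of 0.1 only through its Mfn1-/- mean, so its place among genes above that mean is not given. The direction was the same at each of these pseudocounts, whereas the 2-fold threshold was not reached with a pseudocount of 1. An Mfn1-/- mean below 1 cannot reach it at that pseudocount.

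Psph, phosphoserine phosphatase, releases free serine in the last step (chr5:129765558-129787449, minus strand). WT oocytes had a mean of 0.298 against 0.939 in Mfn1-/- oocytes, a ratio of 3.15 and a log2 fold change of 1.38. Of genes at or above 0.1, 485 (3.51%) had a higher log2 fold change, and of the 4150 genes near its own mean, 210 (5.06%) had one as high. Psph shares up to 452 bases of exon with a transcript of Cct6a, a subunit of a cytosolic chaperonin, on the opposite strand. Cct6a averaged 0.368 in WT and 0.799 in Mfn1-/- oocytes. The library kit does not mark strand, so reads from the shared bases cannot be told apart, and their part in the value of Psph was not tested.

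The promoter windows of Psat1 and Psph are printed because their genes had the other differences past 2-fold and, unlike that of Asns, their windows hold neither motif, so there are no capitals. The Psat1 window is chr19:15925010-15925309 and the Psph window chr5:129787204-129787503, both GRCm38.p6, minus strand and 5′ to 3′. A second RefSeq window of Psat1 was searched as well and holds no match either.
Psat1: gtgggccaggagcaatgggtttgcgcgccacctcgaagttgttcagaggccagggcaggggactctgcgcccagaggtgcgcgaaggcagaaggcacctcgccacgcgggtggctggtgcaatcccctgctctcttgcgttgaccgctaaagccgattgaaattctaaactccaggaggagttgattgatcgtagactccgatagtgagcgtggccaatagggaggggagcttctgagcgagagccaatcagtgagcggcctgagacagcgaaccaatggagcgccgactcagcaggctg
Psph: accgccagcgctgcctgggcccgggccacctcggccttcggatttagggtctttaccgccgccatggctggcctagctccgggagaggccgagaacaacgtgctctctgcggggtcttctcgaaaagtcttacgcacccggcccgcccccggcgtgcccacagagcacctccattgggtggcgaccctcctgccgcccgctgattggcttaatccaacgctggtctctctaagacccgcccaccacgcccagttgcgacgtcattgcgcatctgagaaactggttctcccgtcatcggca
The G and C content of these windows is 60.3% for Psat1 and 65.0% for Psph, against 61.7% in the Asns window. They hold 20, 28 and 20 CpG dinucleotides, in the same order.

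Phgdh, phosphoglycerate dehydrogenase, catalyses the first and committed step of serine synthesis (chr3:98313170-98339990, minus strand). The WT mean was 1.05 and the Mfn1-/- mean 0.939, a log2 fold change of -0.15. It was the only gene of the 10 with a lower mean in Mfn1-/- oocytes, and 71.8% of genes at or above a mean of 0.1 had a higher log2 fold change. The value is uncertain because 16 other genes, most of them processed pseudogenes, share at least 75 bases with Phgdh at 95% identity or more. Of these, 4 have a row. Gm7901, which matches Phgdh over 1597 bases at 98.7% identity, averaged 10.7 in WT and 10.2 in Mfn1-/- oocytes. Gm9347, with 1608 bases at 97.4%, averaged 1.27 and 1.11, in the same order. Gm5847 had 0.237 and 0.372, and Gm9252 had 0.01 and 0.0328. For Gm7901 and Gm9347, as for Phgdh, the WT mean was the higher, and for the other copies it was the lower. How reads were divided among the copies was not tested.

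**Figure D2:**
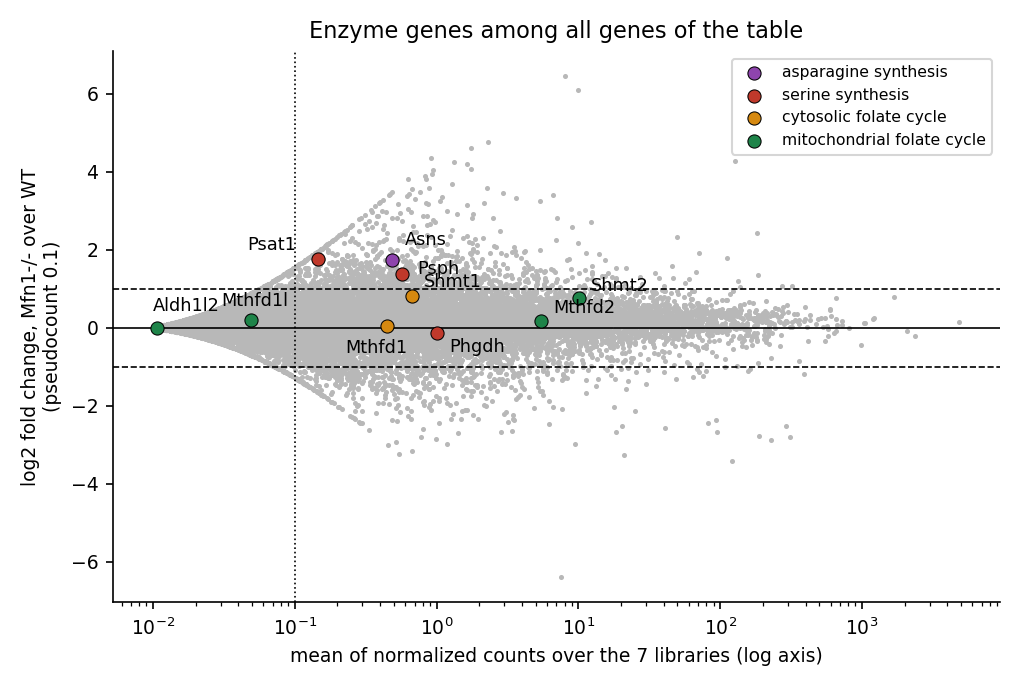
Log2 fold change (Mfn1-/- over WT, pseudocount 0.1) against the mean over the 7 libraries (log axis) for all genes (grey) and the 10 enzyme genes (coloured by role); dashed lines mark 2-fold and the dotted line a mean of 0.1. Asns, Psat1 and Psph lie above the upper dashed line, Shmt1 and Shmt2 between it and 0, and Psat1 is near the upper edge that genes of such low means can reach.

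Shmt1 encodes the cytosolic serine hydroxymethyltransferase (chr11:60788104-60811718, minus strand). It averaged 0.477 in WT and 0.92 in Mfn1-/- oocytes, a ratio of 1.93 and a log2 fold change of 0.82. In the group with a mean of at least 0.1, 10.5% of genes had a higher log2 fold change, and 13.3% of the 4093 genes near its mean had one as high. Up to 184 bases of its exons are shared with Smcr8 on the opposite strand, a gene with a WT mean of 0.143 and an Mfn1-/- mean of 0.155. Shmt1 thus lay just under the threshold, and its ratio without a pseudocount was also below 2.

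Mthfd1, the cytosolic enzyme that interconverts the folate carbon between its oxidation states and joins formate to tetrahydrofolate, lies at chr12:76255298-76319803 on the plus strand. WT and Mfn1-/- means were 0.437 and 0.455, a ratio of 1.04. An exon shares 37 bases with Gm47525 on the opposite strand, which has no row. Its log2 fold change of 0.05 was below the median of all genes at or above a mean of 0.1, which was 0.11. Its sign depended on the scaling. It became -0.06 when the Mfn1-/- means were scaled to the WT total, and -0.11 when the median of expressed genes was subtracted.

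Shmt2, the mitochondrial counterpart of Shmt1, lies on chromosome 10 (chr10:127517123-127522444, minus strand). It averaged 7.7 in WT and 13.2 in Mfn1-/- oocytes, a difference of 5.5 normalized counts, with a ratio of 1.71 and a log2 fold change of 0.77. Because its mean is well above the pseudocounts, its log2 fold change moved little with them, from 0.78 without a pseudocount to 0.71 with a pseudocount of 1. Among the 1650 genes with a mean within 2-fold of its own, 121 (7.33%) had a log2 fold change as high. Shmt2 shares up to 32 bases of exon with Ndufa4l2, which is transcribed from the opposite strand and averaged 1.05 in WT and 4.76 in Mfn1-/- oocytes. A processed pseudogene on chromosome 7, Gm15544, matches Shmt2 over 180 bases at 95% identity and averaged 10.4 and 21.6, in the same order. Both differ between the genotypes in the direction of Shmt2, and the part of shared reads was not tested.

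Mthfd2 encodes the mitochondrial dehydrogenase and cyclohydrolase that oxidises the carbon released by Shmt2 (chr6:83305691-83325908, minus strand). WT oocytes had 5.14 and Mfn1-/- oocytes 5.8, a ratio of 1.13 and a log2 fold change of 0.17. Of the 2139 genes near its mean, 48.0% had a log2 fold change as high, so Mthfd2 lay near the middle of genes of its level. With the median of expressed genes subtracted, the value was 0.01.

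Mthfd1l, which releases formate from the mitochondrion, lies at chr10:3973118-4167081 on the plus strand. WT and Mfn1-/- means were 0.0407 and 0.0598, a ratio of 1.47 but a log2 fold change of 0.18 with the pseudocount. Aldh1l2, the mitochondrial enzyme that oxidises the carbon to carbon dioxide and makes NADPH, had 0.0106 in WT and 0.0107 in Mfn1-/- oocytes, next to the lowest mean of the table (chr10:83487450-83534140, minus strand). At such values no difference in Aldh1l2 could be measured. Up to 1056 bases of an Aldh1l2 exon are shared with D10Wsu102e on the opposite strand, whose WT mean was 8.68 and Mfn1-/- mean 6.96, and whether reads of these bases were counted for either gene is not given in the sources used here. Aldh1l1, the cytosolic counterpart of Aldh1l2, had a WT mean of 0.0376 and an Mfn1-/- mean of 0.0395.

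Between compartments, the hydroxymethyltransferases had log2 fold changes of 0.82 (cytosolic) and 0.77 (mitochondrial). Their dehydrogenase partners Mthfd1 and Mthfd2 had 0.05 and 0.17. In both compartments the step that takes the carbon from serine thus had the larger difference, and neither compartment held a gene past 2-fold. In serine synthesis the first enzyme had a log2 fold change of -0.15, the second 1.77 and the third 1.38. The value of the first, Phgdh, is uncertain because of its near-identical copies, so the contrast with the later steps is uncertain as well.

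Of all 10 genes, 9 had a higher and 1 a lower mean in Mfn1-/- oocytes, beside 56.7% of all genes with a higher mean. The 9 include Mthfd1 and Aldh1l2, whose sign depended on the scaling. Past 2-fold, 3 were higher and 0 lower, beside 4.87% of all 22877 genes higher and 2.75% lower. Of the 7 with a WT mean of at least 0.1, which leaves out Psat1, 2 were higher and 0 lower. Of all genes with such a WT mean, 5.53% were higher and 4.44% lower. A mean of at least 0.1 was reached by 8 of the 10, all but Mthfd1l and Aldh1l2, and Psat1 is among the 8 only through its Mfn1-/- mean, so no share of the 8 is read. Over all genes with such a mean, 7.25% were higher by more than 2-fold and 4.24% lower. With a threshold of 1.5-fold, Shmt1 and Shmt2 joined, giving 5 higher and 0 lower of the 10. Over all genes with a mean of at least 0.1, 17.3% were higher and 9.73% lower at that threshold. Because the 5 include Psat1 and the 10 include Mthfd1l and Aldh1l2, the count is not read against these shares. The median log2 fold change of the 10 genes was 0.48, whereas that of all genes was 0.04 and that of genes at or above a mean of 0.1 was 0.11. The 10 genes spanned -0.15 to 1.77.

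**Figure D3:**
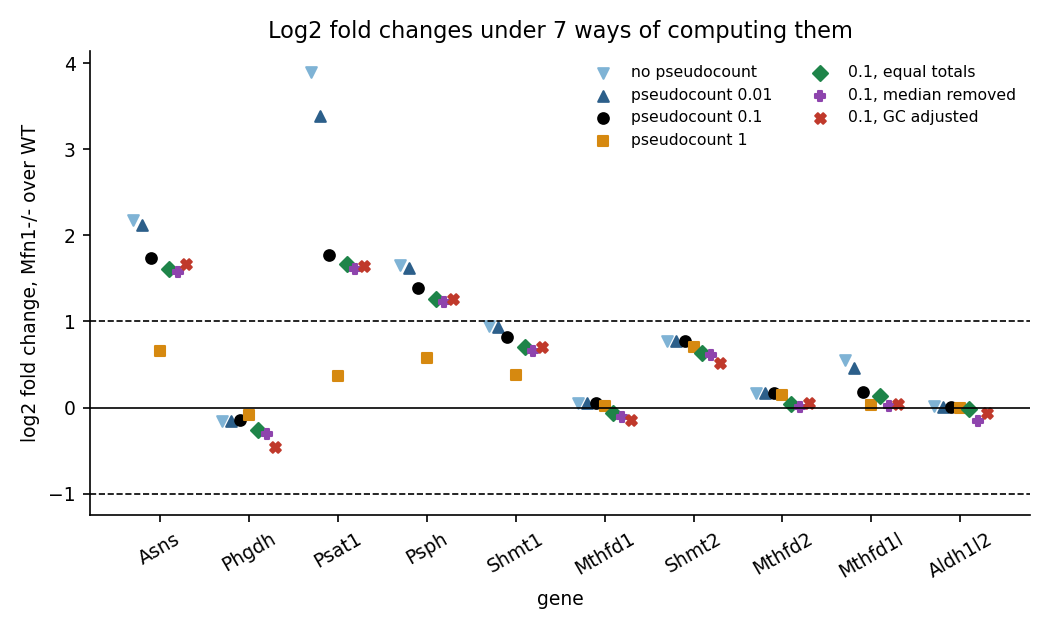
Log2 fold change of each of the 10 genes without a pseudocount, with pseudocounts of 0.01, 0.1 and 1, and, at 0.1, with equal genotype totals, with the median of expressed genes subtracted or adjusted for GC content; dashed lines mark 2-fold. Asns, Psat1 and Psph stay above the upper line except with a pseudocount of 1, at which Mfn1-/- means below 1 cannot reach it. Psat1 spreads most, from 0.36 to 3.90, and Mthfd1 and Aldh1l2 change sign around 0.

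The neighbouring pathways were described with 9 lists of 124 genes, of which 114 have a row and 78 a mean of at least 0.1. Of the 78, 5 reached 0.1 only through the Mfn1-/- mean. A higher mean in Mfn1-/- oocytes was found for 60 of the 78, beside 59.9% of all genes in that range. Past 2-fold, 10 were higher and 1 lower, beside 7.25% and 4.24% of all genes in that range. The counts of the single lists below stand beside the same shares. Of the 73 with a WT mean of at least 0.1, 9 were higher and 1 lower. Of all genes with such a WT mean, 5.53% were higher and 4.44% lower. The median log2 fold change of the 78 genes was 0.27. Pairs of means of these genes are given with Mfn1-/- first. Among other genes of folate metabolism and transport, 0 of 7 passed 2-fold. Thymidylate synthase, Tyms, with the highest mean of that list, was at 15 in Mfn1-/- and 18.4 in WT oocytes. Of 5 genes of glycine cleavage and serine use, Gcsh, which carries the glycine carbon between the subunits of the cleavage system, was higher with means of 2.02 and 0.783 and a log2 fold change of 1.26. Dld, a subunit shared with other dehydrogenase complexes, was at 13.2 and 13.3. Among the 9 genes of methionine metabolism and transsulfuration, 0 passed 2-fold, and Mat2b, which regulates S-adenosylmethionine synthesis, was at 61.3 and 64.9.

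Purine synthesis consumes folate carbon and serine-derived glycine. Of its 11 genes with a mean of at least 0.1, 2 passed 2-fold, both higher, beside 7.25% of all genes with such a mean. Prps1, which makes the activated ribose for purines, was at 0.476 in Mfn1-/- and 0.166 in WT oocytes, a log2 fold change of 1.11. Adsl, adenylosuccinate lyase, was at 2.89 and 1.32, a log2 fold change of 1.07. Adss, with the highest mean of the list, was at 9.89 and 12.1. Around asparagine, aspartate and glutamine, 1 of 8 genes passed, and it was lower: Got1, the cytosolic aspartate aminotransferase, was at 0.498 in Mfn1-/- oocytes against 2.5 in WT, a log2 fold change of -2.12. Glul, glutamine synthetase, lay at the threshold with a log2 fold change of 1.00 and means of 2.58 and 1.24. Of 4 carriers with a mean of at least 0.1, 0 passed 2-fold, and Slc3a2, the heavy chain of several amino acid exchangers, was at 16.6 and 10.9. The neutral amino acid carrier Slc38a2, whose mean over the libraries was below 0.1, was at 0.132 and 0.0123. In the 9 lists, 5 genes with a mean of at least 0.1 were higher by 2-fold when the median of expressed genes was subtracted. Without a pseudocount, 15 were. The shares of all genes with such a mean were 5.42% and 10.9%, in the same order.

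**Figure D4:**
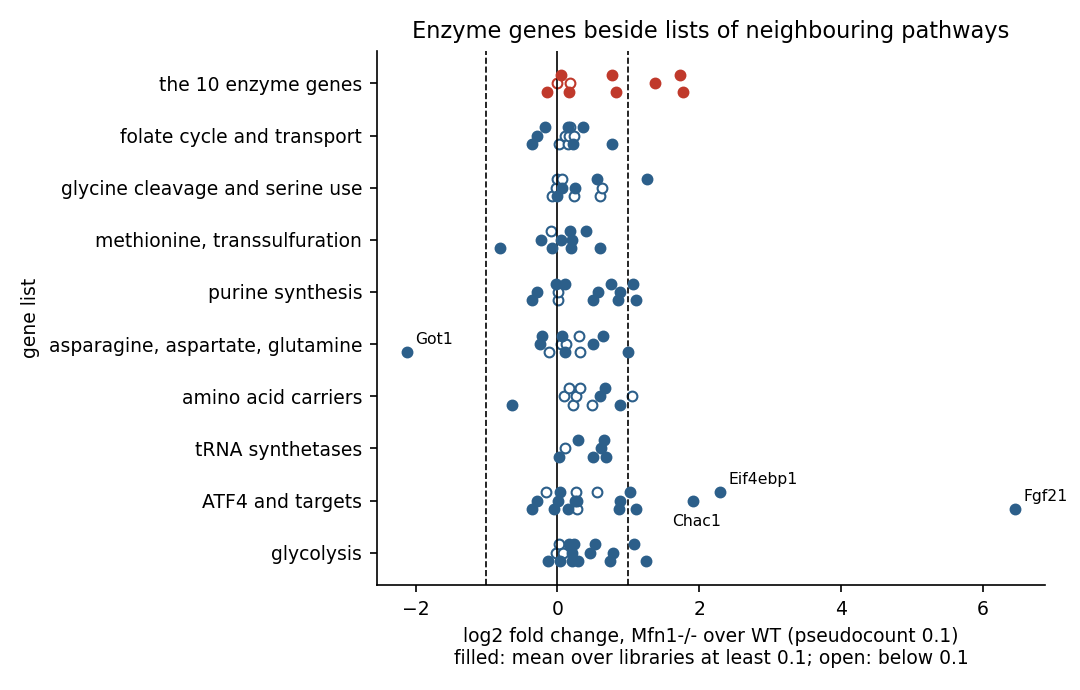
Log2 fold change (Mfn1-/- over WT, pseudocount 0.1) of the 10 enzyme genes and of the genes with a row in 9 lists of neighbouring pathways, 1 point per gene, filled for a mean of at least 0.1 and open below; dashed lines mark 2-fold and vertical offsets only separate points. Got1 lies alone on the left beyond 2-fold, and Fgf21, Eif4ebp1 and Chac1 in the list of ATF4 and its targets lie farthest to the right.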

How the data were processed

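RNA was amplified with Smart-Seq2 and libraries were made with a Nextera XT kit, which does not mark strand. The submitters' processing notes name cutadapt, FastQC, STAR and DESeq, the methods name Cutadapt, the FASTX-Toolkit, STAR and DESeq2, and both give the mouse build GRCm38/mm10. How the counts were normalized, the gene annotation, the aligner version and the strand setting are not given in the sources used here. The signal used is the authors' deposited mean of normalized counts per genotype, beside a sum over libraries. In 100% of rows that sum was within 1% of what 4 WT and 3 Mfn1-/- libraries with these means would give. The table also holds the authors' own ratio, fold change, p-value and FDR, which were not used. Columns of per-sample values that were left out numbered 0.

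The log2 fold change was computed from the genotype means with a pseudocount of 0.1, and genes past 2-fold were counted. Ranks were taken among genes with a mean of at least 0.1 and among genes with a mean within 2-fold of the gene. The genes named are the 10 enzyme genes and their relatives in the lists, Mfn1, and, for each list, the genes past 2-fold with a mean of at least 0.1 (at most 4 per direction) and the gene with the highest mean. Glul, Slc38a2, Sesn2, Atf4, Atf3, Ddit3, Trib3, Gdf15, Gars, the marker genes, and the genes that overlap or resemble the 10 were named after their values were seen. The 10 genes and the lists were chosen with earlier results of these data known. Gene positions and exon overlaps are from GENCODE M21 (GRCm38), near-identical transcripts were searched with blastn 2.17.0, and promoter windows are from RefSeq (GRCm38.p6). The code was tested with known fold changes, without noise, put into genes with a mean of at least 1, and with planted motifs. That test covers the arithmetic only, and no gene with means as low as those of Asns, Psat1 or Psph. Python 3.11.15, numpy 2.4.6, pandas 2.3.3 and matplotlib 3.10.9 were used.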

Additional observations from a re-analysis of the deposited data

How the results depend on the processing

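The table holds 1 mean per genotype, so leaving out each replicate was not run and no error can be set beside any value. No paired analysis was possible because WT and Mfn1-/- titles share replicate numbers but the columns carry only genotype means. The planned comparison of protein sequences was not run. Of the 70 values of the 10 genes under 7 alternatives, 64 kept their direction and 64 stayed on the same side of 2-fold and within 1.5-fold of the reported value. Mthfd1 and Aldh1l2 changed sign. With a pseudocount of 1, Asns (0.65), Psat1 (0.36) and Psph (0.58) were under 2-fold, so 0 of the 10 genes passed. The Mfn1-/- means of Asns, Psat1 and Psph were below 1, so these genes could not pass at that pseudocount. At that pseudocount, 3 pathway genes were higher by 2-fold, beside 1.51% of all genes with a mean of at least 0.1. Of the 10 genes, 5 passed 1.5-fold and 2 passed 3-fold, beside 17.3% and 2.4% of genes in that range. The 10 include Mthfd1l and Aldh1l2 below that mean and Psat1 above it only through its Mfn1-/- mean. These counts are therefore not read against the shares. Pathway genes higher by 2-fold numbered 14 with a pseudocount of 0.01 and 15 without any, beside 10.5% and 10.9% of genes in that range. They numbered 6 with equal genotype totals (5.81%), 5 with the median of expressed genes subtracted (5.42%) and 6 after the GC adjustment (5.16%). With the lowest mean of 0.01 subtracted and no pseudocount, 15 were higher (11.3%) and 3 lower (7.27%). This setting and the GC adjustment were chosen after seeing the data. Pathway genes lower by 2-fold numbered 2 with a pseudocount of 0.01 and 2 without any. Of all genes with a mean of at least 0.1, 6.56% and 6.91% were lower at these settings. With no filter on low means, 2.75% of genes were lower by 2-fold. In the 150 bases before the start alone, TGATGNAA was found in 2.23% and CACGTG in 4.3% of promoters, and the Asns match remained. The median of the 10 genes ran from 0.26 with a pseudocount of 1 to 0.74 with the lowest mean subtracted. The table gives no depth per library.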

Other observations

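Outside the enzymes themselves, a list of ATF4 and some of its known targets held 15 genes with a mean of at least 0.1. Of these, 5 were higher by more than 2-fold and 0 lower, beside 7.25% and 4.24% of all genes with such a mean. The list is not a full set of targets, and genes placed in the other lists were not counted in it. Of the 15, Sesn2 and Atf3 reached a mean of 0.1 only through Mfn1-/- oocytes. Without them, 4 of 13 were higher by 2-fold and 0 lower. Of all genes with a WT mean of at least 0.1, 5.53% were higher and 4.44% lower. Fgf21, a secreted hormone, had the largest log2 fold change of the list, 6.46. It was at 18.6 in Mfn1-/- oocytes against 0.113 in WT. With Mfn1-/- again first, Eif4ebp1, an inhibitor of cap-dependent translation, had means of 2.92 and 0.516, and Chac1, which degrades glutathione, had 5.01 and 1.25. Pycr1, the last enzyme of proline synthesis, was at 1.46 and 0.62. Sesn2, a leucine sensor, had means of 0.268 and 0.0813. Atf4 itself was at 55.4 and 45.5, and Cebpb, with the highest mean of the list, was at 67.6 and 37.1. Other targets were close to equal, with Ddit3 at 18.6 and 18.2 and Trib3 at 0.213 and 0.224, and Gdf15 was at 0.421 and 0.566. The list holds known targets of very different size of difference, and no test of it can be made from genotype means.

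All 6 tRNA synthetases for serine, glycine, asparagine and methionine with a mean of at least 0.1 had higher means in Mfn1-/- oocytes, 0 of them past 2-fold, beside 59.9% of all genes with such a mean. They include Gars, at 0.827 and 0.815. Nars, which charges asparagine, was at 8.71 and 5.47, a log2 fold change of 0.66. Among the 13 genes of glycolysis with such a mean, 12 had higher means and 2 were higher by more than 2-fold. The shares of all genes with such a mean were 59.9% and 7.25%. The 2 genes were Aldoc, an aldolase, with 0.462 and 0.135, and Pfkl, a phosphofructokinase, with 0.674 and 0.265. Tpi1, triosephosphate isomerase, had the highest mean of the list, at 48.1 and 34.8.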
